A study of Mus musculus with 20 samples.

Results

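The ventricles and atria of newborn hearts labelled as lacking Creld1 in the myocardium were compared here, chamber against chamber within the same pup. The 6 libraries came from 3 pups labelled MyHC-Creld1 KO, of the strain C57BL/6N, on postnatal day 3 (P3), and each pup gave 1 library of ventricles and 1 of atria. They are 6 of 20 libraries in the series. The chambers were taken from the tissue labels and the pairs from the pup identifiers. The 6 libraries of the 3 wild-type (WT) littermate pups, dissected the same way, serve as the background for genotype, and the 8 libraries of E13.5 whole hearts are not used. All groups share the strain, and no treatment is given. The MyHC driver is known to act in cardiac muscle, so the vessels, fibroblasts, valves and blood cells in each piece should keep Creld1. Bulk values do not show Creld1 by cell type, so this was not tested. No source used here gives the deleted exons, or says which of the left and right chambers were taken.

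Atrial and ventricular muscle cells build the same contractile apparatus from different genes. Each has its own pair of myosin light chains and its own brake on the sarcoplasmic calcium pump, and atrial cells also secrete hormones and growth factors. Transcription factors of the Iroquois and Hairy families hold the ventricular programme, and Tbx5 and the COUP-TF factors belong to the atrial one. After birth heart muscle turns to fatty acids as its fuel. Creld1 encodes an endoplasmic reticulum membrane protein, and its variants are known from atrioventricular septal defects.

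The values are a normalized signal on a linear scale, as deposited. The 6 KO libraries had an estimated 12735281 to 20669358 reads in ventricles and 10339319 to 16998517 in atria. Creld1 itself (chromosome 6, 113483297 to 113493343, plus strand, mm10) stood at 19.9, 59.3 and 51.9 in KO ventricles of pups 1 to 3 and at 23.1, 26.6 and 82.4 in KO atria. In WT pups 1 to 3 it stood at 62.2, 59.7 and 130 in ventricles and at 105, 21.6 and 146 in atria. The ventricular library labelled KO pup 2 thus lay just under its WT littermate and the atrial one above it. The 2 libraries of WT pup 2 are the pair that differs in sex (below). The atrial value of KO pup 2 (26.6) was close to that of KO pup 1 (23.1) and under the atria of WT pups 1 and 3 (105 and 146). Creld1 therefore does not settle the label of KO pup 2, and counts without that pup are given beside the main ones. Creld1 did not differ between KO ventricles and KO atria beyond the spread of the pups (log2 difference 0.09, SE 0.70, limma adjusted p = 0.978).

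The atrial library of pup 3 stood apart from the other KO atria. Mitochondrially encoded transcripts made up 33.3%, 33.2% and 33.4% of the signal in KO ventricles of pups 1 to 3, against 19.8%, 21.2% and 3.13% in KO atria. Erythroid markers made up 0.185%, 0.141% and 0.227% in KO ventricles, against 0.326%, 0.398% and 2.02% in KO atria. The chamber difference of pup 3 also followed the GC content of the transcripts. Its median was 0.85 (log2) in the bin of genes with the lowest GC content and -1.26 in the bin with the highest, of 5 bins of like size, whereas the medians of KO pups 1 and 2 stayed between -0.08 and 0.04 in every bin. The WT pup of the same litter had the same tilt. Results are therefore also given without pup 3.

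Sex-linked transcripts can show that 2 chambers did not come from 1 animal, but a match cannot tell apart pups of the same sex. Xist, the transcript of the inactive X chromosome, stood at 21.6, 2858 and 2982 in KO ventricles of pups 1 to 3, against 20.4, 2485 and 1591 in KO atria. The chambers of each KO pup thus matched in sex, and an exchange between pups 2 and 3 would not be seen. In WT pups it stood at 2791, 74.9 and 2667 in ventricles, against 3596, 2876 and 6119 in atria. The Y-linked gene Uty stood at 19.9, 272 and 5.48 in WT ventricles, against 20.7, 18.03 and 7.21 in WT atria. The libraries labelled as the ventricles and the atria of WT pup 2 thus differ in sex and go against their label as 1 animal. Calls and genotype differences that use WT pups are given with and without that pup. WT list medians and the share of all genes with the same sign in both genotypes are of all 3 WT pups only.

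**Figure D1:**
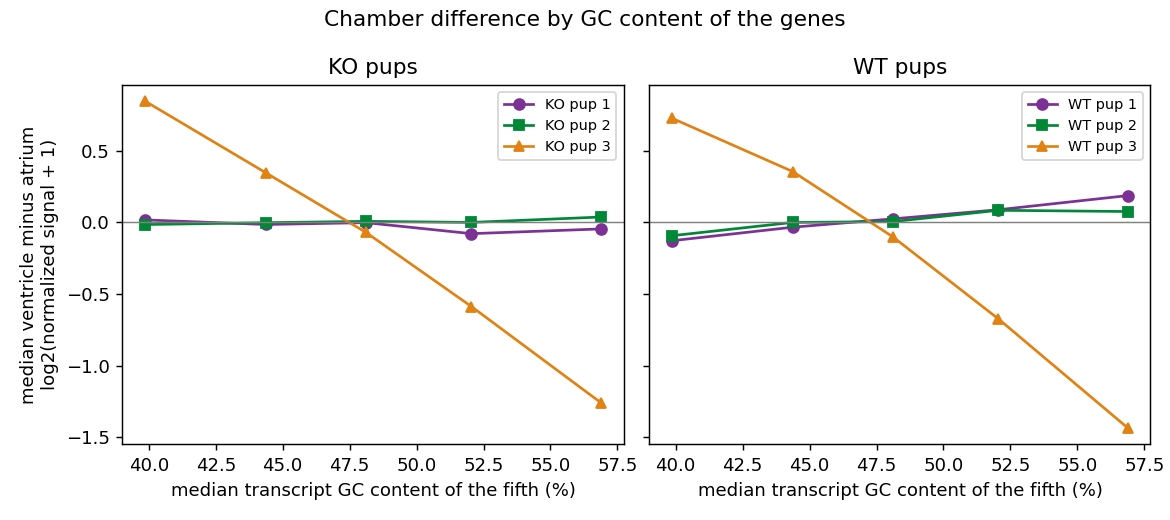
Median ventricle minus atrium difference on the log2(normalized signal + 1) scale in 5 bins of genes by transcript GC content, 1 line per pup, with KO pups left and WT pups right. Pup 3 of each genotype slopes downward, in the KO panel from 0.85 to -1.26, and the other 2 KO pups stay near 0.

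KO ventricles and KO atria differed most clearly in the genes that define the chambers, from myosin light chains to Bmp10. Of 14821 genes tested, 15 were higher in KO ventricles than in KO atria (0.101%) and 14 were lower (0.0945%), by limma on log2(signal + 1) within pups at a Benjamini-Hochberg adjusted p under 0.05. All 29 genes (0.196%) had ventricles and atria that did not overlap and the same sign in 3 of 3 pups. For comparison, chambers did not overlap in 18.3% of all genes and 33.9% had the same sign in 3 of 3 pups. The 29 were chosen by a test on the same values, so both traits largely follow from the choice and lend it no support. Irx4, listed at 0 in all 3 KO atria, also passed the signal filter through the ventricles alone. With p left unadjusted, 702 genes were under 0.05 on the higher side and 839 on the lower. The calls rest on a spread that limma takes from genes of like level: without this trend limma called 0 higher and 0 lower (smallest adjusted p = 0.123), with 1337 genes at an unadjusted p under 0.05. Without the pup block limma called 36 higher and 30 lower, without pup 1 it called 7 and 11, without pup 2 it called 22 and 27, and without pup 3 it called 94 and 81.

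Of the 15 tested genes in a list of ventricular chamber genes 6 rose and 0 fell, and the list median was 2.82 (log2), beside -0.03 over all genes tested. The 6 were Myl2, Myl3, Myh7, Pln, Irx4 and Hey2. Of the 19 tested genes in a list of atrial chamber genes 8 fell and 0 rose, with a list median of -3.01. The 8 were Myl7, Myl4, Sln, Bmp10, Mybphl, Fgf12, Dkk3 and Tbx5. Some members went the other way without passing. Of the ventricular genes 3 were negative, down to -1.92 (log2), and 1 atrial gene was positive, at 3.55, in 3 of 3 pups. The counts of called genes were 2 ventricular and 5 atrial without pup 1, 3 and 9 without pup 2, and 7 and 14 without pup 3. In bulk tissue, fewer cells of a type and less RNA per cell cannot be told apart.

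The largest rise was that of Myl2, which encodes the ventricular regulatory light chain of myosin (chromosome 5, 122100951 to 122113472, plus strand). Its signal was 44516, 43106 and 51161 in KO ventricles of pups 1 to 3, against 93.5, 97.2 and 51.2 in KO atria. Every ventricular library lay far above its atrial partner. The log2 difference was 9.20 with an SE of 0.36 (limma adjusted p = 2.05e-04), a 587-fold difference on the signal + 1 scale. Its atrial counterpart Myl7 (chromosome 11, 5896637 to 5898782, minus strand) stood at 1013, 1256 and 669 in KO ventricles, against 26424, 25794 and 37203 in KO atria. The ventricular signal of Myl7 was low in all 3 pups but far from 0. Its log2 difference was -4.95 (SE 0.41, limma adjusted p = 0.00825).

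The essential light chains parted in the same manner. Myl3, the ventricular essential light chain gene, stood at 23180, 19894 and 26955 in KO ventricles, against 1322, 956 and 3139 in KO atria (log2 difference 3.87, SE 0.41, limma adjusted p = 0.0220). Pup 3 had the highest Myl3 of both chambers and the smallest difference, 3.10 (log2), beside 4.13 and 4.38 in pups 1 and 2. Myl4, the atrial essential light chain gene, stood at 842, 937 and 1009 in KO ventricles, against 18870, 20946 and 13321 in KO atria (log2 difference -4.23, SE 0.36, limma adjusted p = 0.00825). Myl1, known as the essential light chain gene of fast skeletal muscle, was another light chain gene on the atrial side. Its signal was 445, 571 and 758 in KO ventricles, against 9486, 13081 and 14116 in KO atria, with differences of -4.41, -4.52 and -4.22 (log2) in pups 1 to 3.

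The upstream sequences of a ventricular and an atrial light chain gene and of Bmp10 are shown because they were called in opposite directions: Myl3 rose, and Myl7 and Bmp10 fell, Bmp10 by the most of all. They are from RefSeq (GRCm38.p6) and run 5′ to 3′ in the direction of the gene toward its start. Capitals mark a motif of GATA factors with the letters AGATAA, a motif of TEAD factors with the letters GGAATG, or the CArG box, on either strand.
Myl3 (chr9:110763428-110763645, plus strand): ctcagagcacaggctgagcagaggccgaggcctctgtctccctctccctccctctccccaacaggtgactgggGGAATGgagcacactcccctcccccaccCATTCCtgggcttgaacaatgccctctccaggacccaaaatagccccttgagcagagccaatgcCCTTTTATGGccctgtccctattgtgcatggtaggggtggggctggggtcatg
Myl7 (chr11:5898783-5899032, minus strand): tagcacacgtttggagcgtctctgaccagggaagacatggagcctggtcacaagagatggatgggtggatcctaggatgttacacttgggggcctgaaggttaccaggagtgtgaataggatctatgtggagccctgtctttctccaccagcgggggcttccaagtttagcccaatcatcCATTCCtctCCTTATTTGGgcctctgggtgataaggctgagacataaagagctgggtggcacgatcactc
Bmp10 (chr6:87428744-87428993, plus strand): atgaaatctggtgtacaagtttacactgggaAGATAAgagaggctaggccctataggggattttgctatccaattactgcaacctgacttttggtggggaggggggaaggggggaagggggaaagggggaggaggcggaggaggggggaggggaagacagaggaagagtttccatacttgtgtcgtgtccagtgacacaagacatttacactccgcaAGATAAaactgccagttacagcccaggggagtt
The window of Myl3 lies within the annotated span of the gene, which has an earlier start, and ends before an exon, at 218 bases. The other 2 are 250 bases long. Myl3 and Myl7 each hold 1 CArG box and at least 1 GGAATG, although they are used in opposite chambers, and the 2 matches in Bmp10 are AGATAA. In windows of the 250 bases before a start, the CArG box occurs in 1.47% of all 32851 promoters in the RefSeq table, GGAATG in 12.6% and AGATAA in 9.99%. Of the 29 genes, 12 of 15 higher and 11 of 14 lower ones have an entry, with 17 and 15 promoters. GGAATG occurs in 5 of the 17 and 3 of the 15, AGATAA in 2 and 2, and the CArG box in 1 and 1. Other motifs were searched on both strands: AGGTGT (T-box) occurs in 0 and 1 of them and in 11.8% of all promoters, CACGTG (an E-box) in 0 and 0 and in 6.02%, and the MEF2 motif in 0 and 0 and in 3.20%. Matches are letters in a window and not binding sites.

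Of 31 sarcomere genes, 3 rose (Myl2, Myl3 and Myh7) and 4 fell (Myl7, Myl4, Myl1 and Mybphl), and the list median was 0.27 (log2). Myh7, the slow beta myosin heavy chain gene that mice turn down after birth, stood at 19073, 12423 and 8808 in KO ventricles, against 2921, 1519 and 1068 in KO atria. Both chambers of pup 1 were highest and both of pup 3 lowest, and the differences were 2.71, 3.03 and 3.04 (log2) in pups 1 to 3 (limma adjusted p = 0.0287). Mybphl, a myosin binding protein gene of the atrium, stood at 1.93, 25.5 and 2.61 in KO ventricles, against 565, 604 and 3209 in KO atria (log2 difference -7.30, SE 0.93, limma adjusted p = 0.0362). Pup 2 had the most Mybphl in ventricles and pup 3 the most in atria. Some thin filament and shared genes lay much closer together: Tnnt2, the cardiac troponin T gene, had a log2 difference of 0.58, Actc1, the cardiac actin gene, 0.26, and Myh6, the alpha heavy chain gene, 0.60. None of these 3 passed with all pups. Without pup 3 Tnnt2 had 0.80 and passed (limma adjusted p = 0.0409), and 7 sarcomere genes were called higher and 4 lower. Myh8, the perinatal myosin heavy chain gene of skeletal muscle, fell. It stood at 40.5, 43.0 and 26.1 in KO ventricles, against 590, 439 and 541 in KO atria (log2 difference -3.82, SE 0.44, limma adjusted p = 0.0287). Of the 14 skeletal muscle markers listed only 5 were tested, Myog was listed at 0 in all 6 libraries, and the other 4 tested did not pass.

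**Figure D2:**
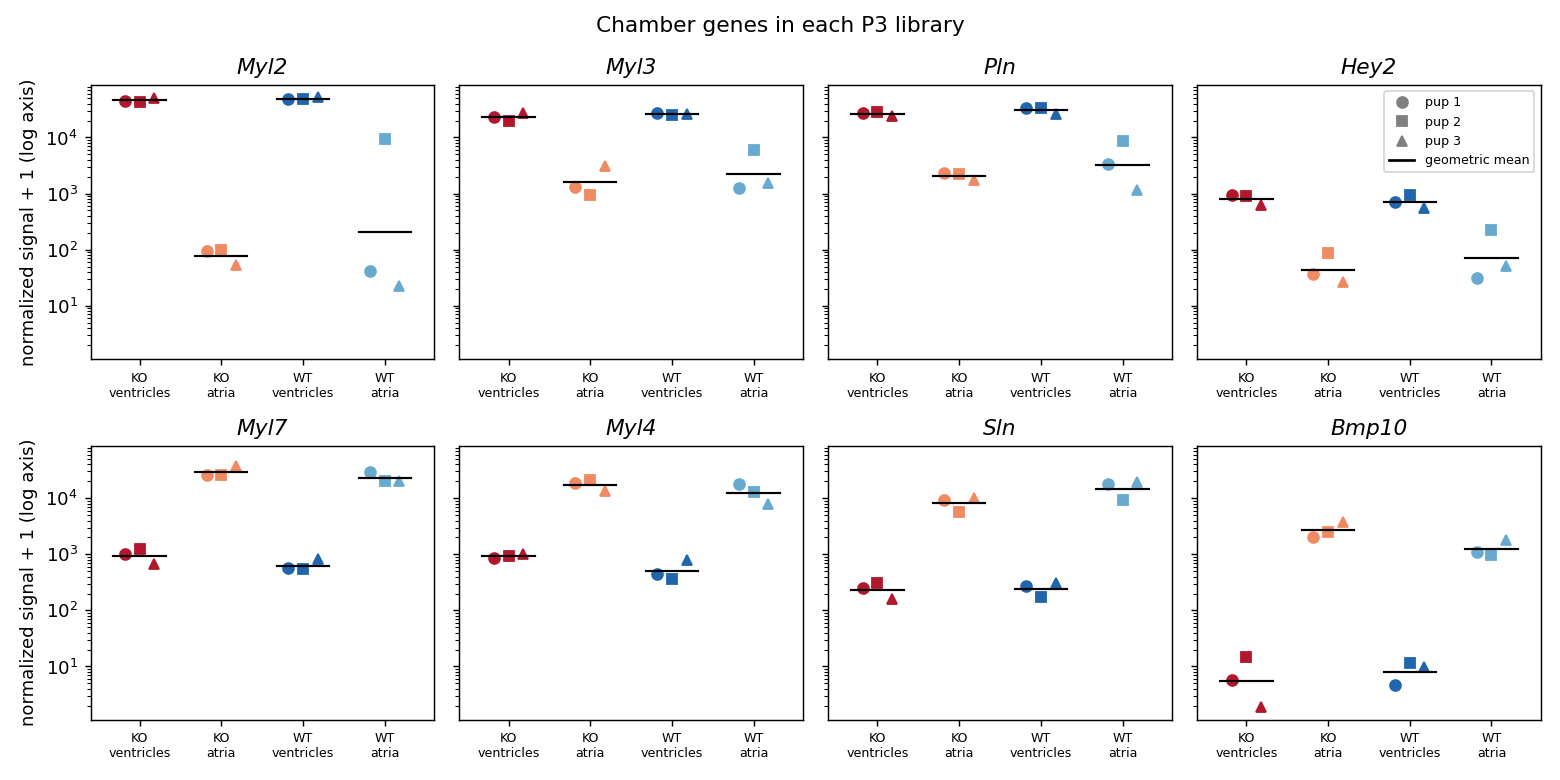
Normalized signal + 1 (log axis) of 4 ventricular genes (top) and 4 atrial genes (bottom) in each P3 library of KO ventricles, KO atria, WT ventricles and WT atria, with 1 point per pup and a line at the geometric mean. The KO chambers do not overlap for any of the 8 genes, and the atrial library of WT pup 2 lies high for the ventricular genes, with Myl2 at 9242.

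The 2 small inhibitors of the sarcoplasmic calcium pump were divided between the chambers. Pln, which encodes phospholamban, stood at 27133, 28382 and 24602 in KO ventricles, against 2281, 2257 and 1740 in KO atria (log2 difference 3.68, SE 0.37, limma adjusted p = 0.0195). Sln, which encodes sarcolipin (chromosome 9, 53850164 to 53854560, plus strand), stood at 249, 305 and 156 in KO ventricles, against 9142, 5744 and 10118 in KO atria (log2 difference -5.14, SE 0.40, limma adjusted p = 0.00654). The 3 pups were close for Pln (3.57, 3.65 and 3.82), and for Sln pup 2 had the smallest difference (-4.23) and pup 3 the largest (-6.01). These were the only 2 calls among 21 calcium cycling genes, whose median was 0.40 (log2). AC153524.2, an unnamed gene that rose (log2 difference 3.26, SE 0.40, limma adjusted p = 0.0309), shares 60.7% of its exon bases with Pln on the opposite strand. No source used here says that reads were counted by strand, so the reads of this pair cannot be told apart.

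Among 22 ion channel and gap junction genes 1 rose and 1 fell, with a median of -0.62 (log2). Kcne1, the subunit gene that slows the potassium channel of late repolarization, stood at 572, 766 and 910 in KO ventricles, against 3.97, 17.3 and 15.3 in KO atria (log2 difference 6.01, SE 0.53, limma adjusted p = 0.00958). Its atrial signal was close to 0 in all 3 pups. Fgf12, which encodes an intracellular regulator of sodium channels, stood at 56.1, 69.9 and 59.2 in KO ventricles, against 2613, 3893 and 1429 in KO atria (log2 difference -5.29, SE 0.38, limma adjusted p = 0.00647). The 3 ventricular values of Fgf12 were nearly alike, and the atrial value of pup 3 was the lowest. Gja5 (connexin 40) and Kcnj3 (a muscarinic potassium channel subunit) had log2 differences of -3.19 and -2.75 with no overlap, and did not pass (limma adjusted p = 0.0805 and 0.118). Kcnj3 in atria stood at 1854, 2251 and 348, so pup 3 had much the smallest chamber difference, and without it limma's adjusted p was 0.0110. Gja1 (connexin 43) stood at 77819, 93890 and 99329 in KO ventricles, against 40600, 61871 and 4650 in KO atria, again with the atria of pup 3 apart.

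Secreted factors stood mainly on the atrial side. Of 23 tested genes of natriuretic peptides and secreted factors 3 fell and 0 rose, 19 were negative, and the median was -1.23 (log2). Bmp10, a growth factor gene of the atrial wall (chromosome 6, 87428994 to 87437677, plus strand), stood at 4.83, 13.97 and 0.871 in KO ventricles, against 2027, 2546 and 3734 in KO atria (log2 difference -8.94, SE 0.70, limma adjusted p = 0.00654). Pup 2 had the highest ventricular value and pup 3 the lowest. Npr3, the clearance receptor gene for natriuretic peptides, stood at 97.4, 149 and 226 in KO ventricles, against 1143, 1324 and 1086 in KO atria (log2 difference -2.98, SE 0.38, limma adjusted p = 0.0351). Dkk3, a secreted protein gene of the Dickkopf family, stood at 358, 524 and 408 in KO ventricles, against 3097, 2820 and 4599 in KO atria (log2 difference -3.01, SE 0.34, limma adjusted p = 0.0287). Outside the lists Uts2b, the gene of a urotensin peptide, was listed at 0, 10.9 and 0 in KO ventricles, against 1131, 1330 and 308 in KO atria (limma adjusted p = 0.0153). Only the ventricles of pup 2 had any Uts2b signal.

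Nppa, the atrial natriuretic peptide gene, stood at 11104, 2713 and 31208 in KO ventricles, against 98476, 95071 and 379853 in KO atria. Its log2 difference of -3.96 (SE 0.67) did not pass (limma adjusted p = 0.0805), and the ventricular values spread more than 10-fold. Exons of Nppa share 61.5% of their bases with Gm13054 on the opposite strand. In WT ventricles Nppa stood at 971, 645 and 5411, and in both genotypes pup 3 was highest. Angpt1, the angiopoietin-1 gene, had a log2 difference of -3.64 with no overlap (limma adjusted p = 0.0795).

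Of 28 tested chamber and core cardiac transcription factors 2 rose and 1 fell, with a median of 0.06 (log2). Irx4, an Iroquois factor gene of ventricular muscle, stood at 186, 224 and 138 in KO ventricles and was listed at 0 in all 3 KO atria (limma adjusted p = 0.0309). Irx2, of the same family, stood at 122, 190 and 191 in KO ventricles, against 3.12, 0 and 0.295 in KO atria (limma adjusted p = 0.0589, not passed). Hey2, the Notch target gene that holds back atrial genes in the ventricle, stood at 951, 887 and 612 in KO ventricles, against 35.9, 86.5 and 25.5 in KO atria (log2 difference 4.19, SE 0.44, limma adjusted p = 0.0220). Irx3 and Irx5 also had chambers that did not overlap, with log2 differences of 3.17 and 2.82, and did not pass. Tbx5, the T-box factor gene, stood at 94.5, 109 and 82.5 in KO ventricles, against 651, 796 and 655 in KO atria, with differences of -2.77, -2.86 and -2.97 (log2) in pups 1 to 3 (limma adjusted p = 0.0322). Factors of the heart as a whole differed in sign and size without passing: Gata6 had a log2 difference of 0.17, Mef2a 0.59, Mef2c -0.80 and Mef2d -1.84, with limma adjusted p values of 0.885, 0.563, 0.438 and 0.468. Tbx20, a T-box factor gene, stood at 3443, 3361 and 3103 in KO ventricles, against 4784, 4243 and 1752 in KO atria, lower in ventricles in pups 1 and 2 and higher in pup 3.

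Prdm16, a zinc finger factor gene known for brown fat and for the compact ventricular wall, stood at 425, 581 and 561 in KO ventricles, against 24.0, 18.4 and 37.6 in KO atria (log2 difference 4.29, SE 0.47, limma adjusted p = 0.0243). Fabp4, a fatty acid binding protein gene of fat cells and heart capillaries, stood at 5388, 7390 and 7220 in KO ventricles, against 602, 806 and 929 in KO atria (log2 difference 3.10, SE 0.31, limma adjusted p = 0.0195). Both are in the list of fat cell markers, and 2 of its 5 tested members rose. Of the other members Cfd was listed at 0 in all 6 libraries. Adipoq was at 40.3 in the ventricles of pup 2 and at 0 in the other 5, and Ucp1 was at 43.7 there and at most 3.99 elsewhere. Cidea stood at 91.8, 41.9 and 84.5 in KO ventricles, against 18.5, 19.9 and 77.3 in KO atria. Pparg stood at 84.2, 11.9 and 21.9 in KO ventricles, against 0.523, 0 and 15.4 in KO atria. Neither passed, and 4 of the 5 tested members were positive. The part of fat cells was not tested. The measured markers of the list summed to 6001 to 8126 in KO ventricles, against 660 to 1073 in KO atria, most of it from Fabp4.

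Vascular genes moved in both directions. Of 17 endothelial and endocardial markers 1 rose (Fabp4) and 1 fell (Npr3), with a median of -0.56 (log2) and sums of 9643 to 12460 in KO ventricles, against 7575 to 12230 in KO atria. The general endothelial gene Cdh5 had a log2 difference of 0.09. Meox2, a homeobox factor gene of heart endothelium, stood at 243, 426 and 423 in KO ventricles, against 3.37, 6.98 and 24.3 in KO atria (log2 difference 5.21, SE 0.63, limma adjusted p = 0.0309). Its atrial signal was low in all 3 KO pups, and pup 3 had the most. Vwf and Plvap, genes of larger and of fenestrated vessels, had -1.75 and -3.56 with no overlap and did not pass (limma adjusted p = 0.153 and 0.189). Of 14 smooth muscle and pericyte markers 1 rose, Abcc9, the sulphonylurea receptor gene of pericytes and heart muscle. It stood at 1305, 1447 and 1317 in KO ventricles, against 139, 258 and 98.2 in KO atria (log2 difference 3.15, SE 0.37, limma adjusted p = 0.0287). The list had 6 positive and 8 negative genes and a median of -0.35 (log2). It summed to 6591 to 9327 in KO ventricles, against 7237 to 18770 in KO atria. Pdgfrb and Rgs5, 2 defining pericyte genes, had log2 differences of -0.80 and 0.62 that did not pass. Tagln and Cnn1 had -2.38 and -2.40 and Myh11 had 4.89, each with no overlap. These 3 did not pass either (limma adjusted p = 0.0631, 0.119 and 0.233). The part of vessel content in these results was not tested.

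The called genes Ddc, Pcdh17 and Epha4 belonged to no list and to no group above. Ddc, the decarboxylase gene of dopamine and serotonin synthesis, stood at 2002, 1962 and 2250 in KO ventricles, against 82.2, 189 and 24.7 in KO atria (log2 difference 4.80, SE 0.57, limma adjusted p = 0.0287). Pcdh17, a protocadherin gene, stood at 593, 431 and 529 in KO ventricles, against 42.4, 31.2 and 66.1 in KO atria, with differences of 3.77, 3.75 and 2.98 (log2) in pups 1 to 3 (limma adjusted p = 0.0309). Epha4, an ephrin receptor gene, stood at 164, 140 and 97.4 in KO ventricles, against 1357, 1102 and 938 in KO atria, and the 3 pups were close, at -3.04, -2.97 and -3.25 (limma adjusted p = 0.0222).

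**Figure D3:**
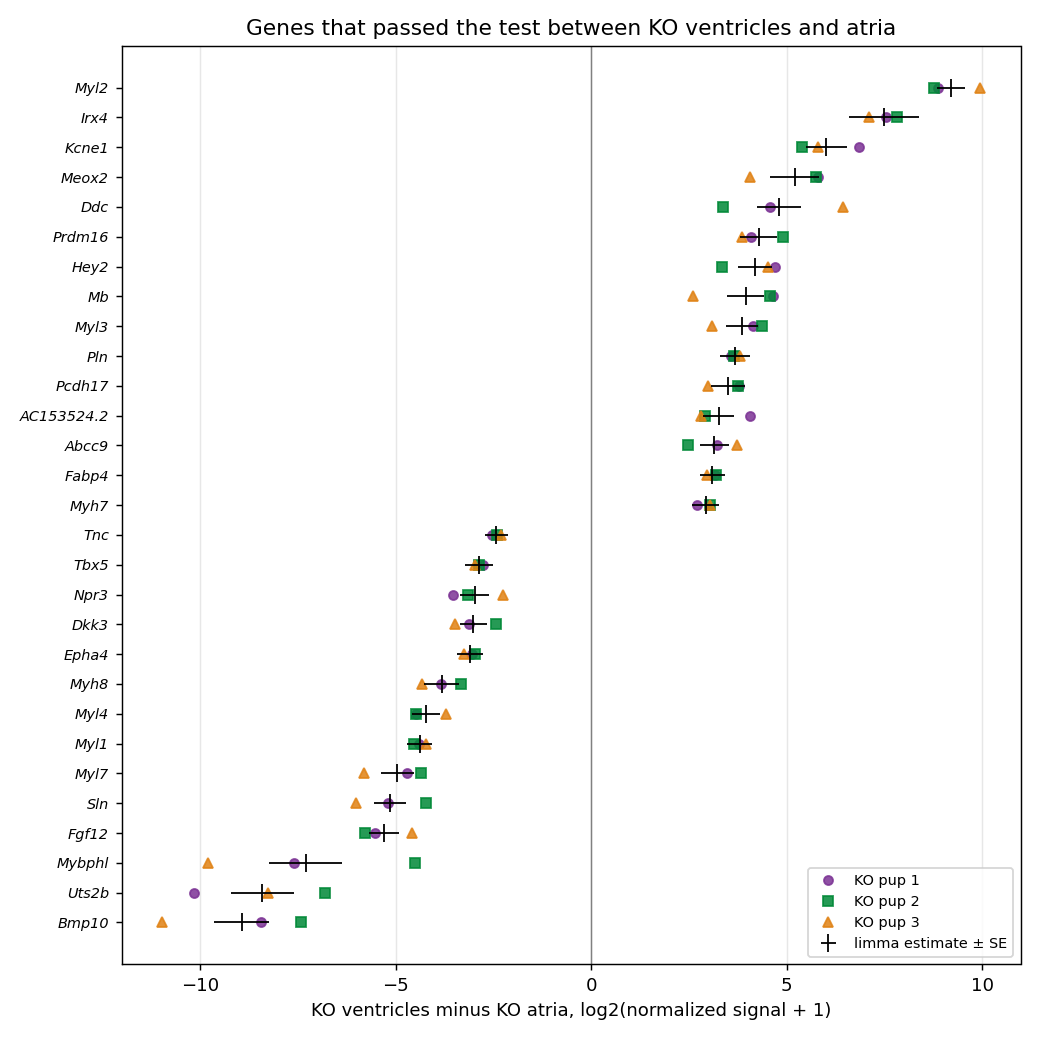
Difference of KO ventricles minus KO atria on the log2(normalized signal + 1) scale for the 29 genes that passed the test, with 1 symbol per pup and the limma estimate ± SE. All 3 pups lie on the same side of 0 for every gene, from Myl2 at 9.20 down to Bmp10 at -8.94.

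Matrix genes leaned to the atria. Of 33 collagen and matrix genes 26 were negative, with a median of -0.70 (log2), and 1 fell. This was Tnc, the tenascin-C gene, at 332, 277 and 545 in KO ventricles, against 1939, 1472 and 2703 in KO atria (log2 difference -2.42, SE 0.31, limma adjusted p = 0.0351). Fbln2, the fibulin-2 gene, had -1.96 with no overlap (limma adjusted p = 0.0795), and Emilin2, an elastic fibre gene, had 2.44 in the other direction (limma adjusted p = 0.130). Fibroblast markers were divided, with 8 positive and 7 negative of 15, a median of 0.16, and sums of 54620 to 69910 in KO ventricles, against 63970 to 65270 in KO atria. Epicardial and mesothelial markers were negative in 10 of 12, with a median of -1.17 and sums of 1184 to 1489 in KO ventricles, against 2130 to 3234 in KO atria. Msln, the mesothelin gene, stood at 34.8, 37.7 and 66.2 in KO ventricles, against 180, 248 and 455 in KO atria (limma adjusted p = 0.0932). No member of the fibroblast, epicardial, macrophage or erythroid lists passed, and their part in the matrix values was not tested.

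Genes of oxidative fuel use were mostly higher in KO ventricles, and few passed. Mb, the myoglobin gene, was the 1 call among 11 energy shuttle and oxygen store genes, at 8161, 8345 and 8269 in KO ventricles, against 323, 346 and 1357 in KO atria (log2 difference 3.95, SE 0.46, limma adjusted p = 0.0287). The ventricular values were nearly equal, and the atria of pup 3 had the most among atria. Exons of Mb share 27.6% of their bases with Gm49540 on the opposite strand. Of 31 fatty acid oxidation genes 29 were positive and 23 were positive in 3 of 3 pups, with a median of 1.05 (log2). Of these genes 0 passed limma's test (19 at an unadjusted p under 0.05, all higher, beside 702 of all 14821 genes). Fabp3, the heart fatty acid binding protein gene, stood at 17995, 18658 and 19821 in KO ventricles, against 1767, 2492 and 5044 in KO atria (limma adjusted p = 0.0715). Cd36, the fatty acid uptake gene, stood at 12492, 16239 and 14102 in KO ventricles, against 3391, 4238 and 1658 in KO atria (limma adjusted p = 0.104). Pdk4, the kinase gene that spares glucose, had a log2 difference of 1.77 (limma adjusted p = 0.0925), with 1.71, 1.96 and 1.65 in pups 1 to 3. The list medians of pups 1 to 3 were 1.14, 1.34 and 0.78, so all 3 pups were positive, and without pup 3 limma called 11 of the 31 genes higher and 0 lower (0.634% of all genes were called higher in that fit).

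Nuclear genes of the respiratory chain had a median of 0.73 (log2) with 29 of 32 positive, and 0 passed. At an unadjusted p under 0.05 by limma, 9 of them were higher, beside 702 of all 14821 genes. Sdha, a succinate dehydrogenase gene, stood at 7584, 6926 and 8700 in KO ventricles, against 3206, 3054 and 2132 in KO atria (limma adjusted p = 0.230). The 13 mitochondrially encoded genes were positive in 3 of 3 pups, each of them, with a median of 2.02 (log2) and none called. Their medians were 1.01, 0.87 and 4.02 in pups 1 to 3, so pup 3 set much of the size. Without pup 3 limma called 11 of the 13 higher, beside 0.634% of all genes called higher in that fit. The low mitochondrial share of the atrial library of pup 3 is made up of these same 13 genes, so it repeats these values. In WT atria this share was 27%, 26.9% and 9.33% in pups 1 to 3, also lowest in pup 3. The part of the high erythroid share of the KO library in these values was not tested. With 2 pups mt-Co1 had a log2 difference of 1.22 and mt-Cytb 1.02. Glycolysis and glycogen genes had a median of -0.0048, with 13 positive and 14 negative of 27.

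**Figure D4:**
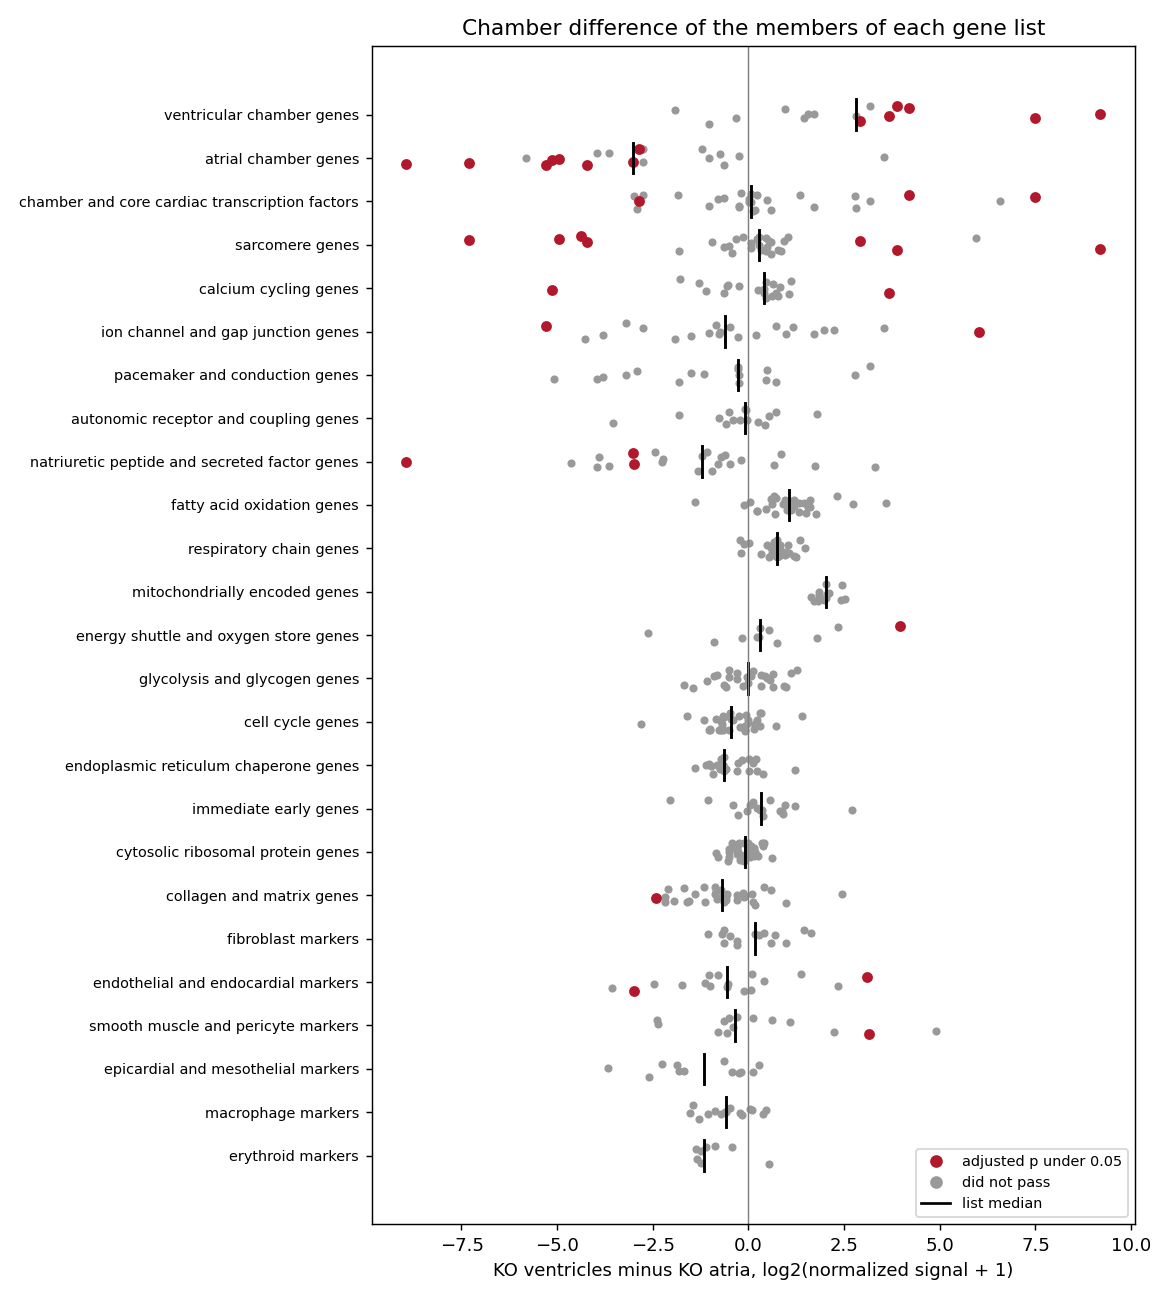
Difference of KO ventricles minus KO atria on the log2(normalized signal + 1) scale for each tested member of the gene lists with at least 8 tested members, with red points for genes that passed the test and a line at the list median. The medians of the ventricular list (2.82) and the atrial list (-3.01) lie apart, though some members overlap. The fatty acid oxidation, respiratory chain and mitochondrially encoded lists lie mostly above 0 with no red point.

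The other lists held few or no calls: of 37 lists 13 held a called gene, and in 1, the lung and airway epithelial markers, no gene had enough signal to be tested. Of 17 pacemaker and conduction genes 0 passed (8 at an unadjusted p under 0.05) and the median was -0.27 (log2), and Vsnl1, a calcium sensor gene known from the sinus node, stood at 3.96, 3.11 and 0 in KO ventricles, against 104, 110 and 68.6 in KO atria (limma adjusted p = 0.0944). Hcn4, the pacemaker channel gene, stood at 20.3, 49.2 and 5.23 in KO ventricles, against 47.2, 77.7 and 38.3 in KO atria, and the chambers overlapped. Cell cycle genes were negative in 27 of 35, with a median of -0.46, and endoplasmic reticulum chaperone genes in 17 of 24, with a median of -0.64. None of either list passed limma's test (4 and 5 at an unadjusted p under 0.05). Over all genes tested 7659 of 14821 were negative, and 1541 were at an unadjusted p under 0.05 in either direction. In the 3 WT pups the median of the cell cycle list had the other sign, 0.47, and that of the chaperone list was -0.39. WT medians were also of the other sign for fibroblast markers (-0.61, KO 0.16) and cytosolic ribosomal protein genes (0.59, KO -0.08), among others. They kept the KO sign for the fatty acid oxidation (1.19), respiratory chain (1.08), matrix (-0.69), atrial (-3.15) and ventricular (1.85) lists. The median of the mitochondrially encoded list was positive in both genotypes. Pdia3 and P4hb, protein disulphide isomerase genes, stood on the atrial side with no overlap, at -1.10 and -1.02 (log2). Creld2, the paralog of Creld1 and itself an endoplasmic reticulum stress gene, stood at 300, 210 and 465 in KO ventricles, against 596, 499 and 328 in KO atria (limma adjusted p = 0.665). It was lower in the ventricles of pups 1 and 2 and higher in those of pup 3. Cytosolic ribosomal protein genes had a median of -0.08.

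The same chambers were compared in the WT pups of the same litters. All 29 genes had the same sign in WT pups, with and without WT pup 2. Over all genes tested 67.4% had the same sign in KO pups and in the 3 WT pups. With all 3 WT pups limma called 0 genes higher in ventricles and 23 lower (0.155%, with 1250 at an unadjusted p under 0.05), and 12 genes were called in both genotypes, which is 41.4% of the KO calls and 52.2% of the WT calls. Without WT pup 2 limma called 41 higher and 67 lower (0.729%), and 22 genes were called in both, which is 75.9% of the KO calls and 20.4% of the WT calls. The atrial library of that pup held ventricular transcripts, with Myl2 at 9242 beside 40.8 and 21.7 in the other WT atria.

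Whether the KO or the WT difference was the larger turned on that pup for several genes. The log2 difference of Myl2 was 9.20 in KO pups, against 7.89 in 3 WT pups and 10.66 without WT pup 2. That of Pln was 3.68 in KO pups, against 3.26 in 3 WT pups and 3.92 without WT pup 2. Sln had -5.14 in KO pups, against -5.91 and -6.01, and Myl7 had -4.95 in KO pups, against -5.18 and -5.16. The KO estimate was the larger for 15 of the 15 higher genes and 8 of the 14 lower ones with all 3 WT pups, but for 10 and 7 without WT pup 2. None of these differences between genotypes passed limma's test in either fit. The smallest unadjusted p among the 29 was that of Meox2, which had 5.21 in KO pups, against 2.12 in 3 WT pups and 2.64 without WT pup 2 (limma adjusted p = 1 in both fits).

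**Figure D5:**
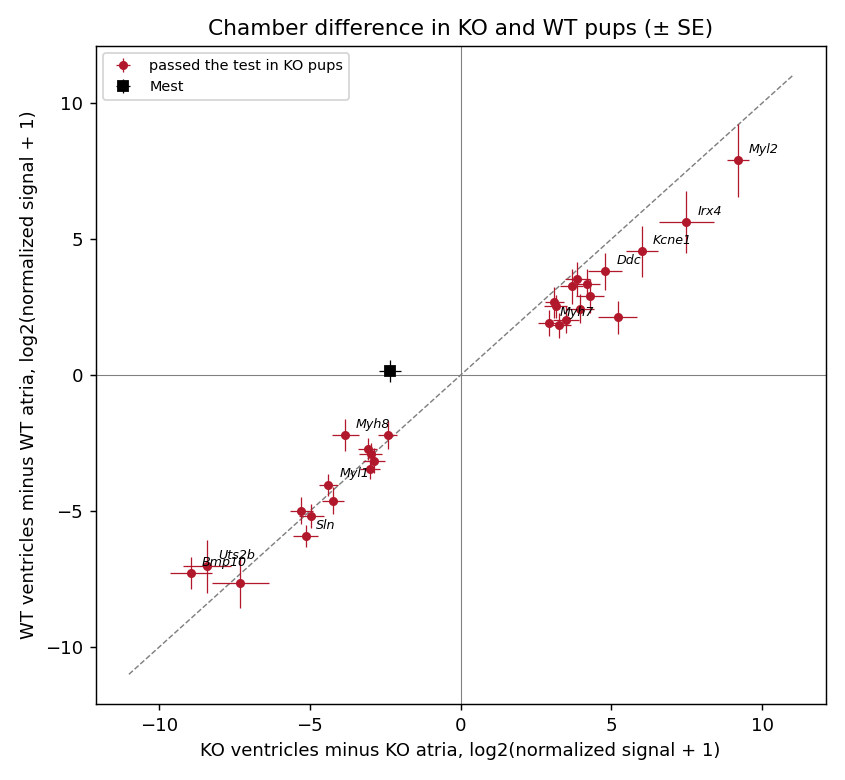
Ventricle minus atrium difference on the log2(normalized signal + 1) scale in KO pups (x axis) and WT pups (y axis), ± SE, for the 29 genes that passed the test in KO pups (red) and for Mest (black). The red points lie in the same quadrant in both genotypes, and Mest is at -2.35 in KO pups and 0.16 in WT pups. The WT values are of all 3 pups, including pup 2.

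Over all 14821 genes limma called no gene whose chamber difference differed between KO and WT pups (0 higher and 0 lower, smallest adjusted p = 1, 339 at an unadjusted p under 0.05). The same-numbered pups of the 2 genotypes share a litter per the labels, and with the litter as a block limma called 0 higher and 1 lower, with 1075 at an unadjusted p under 0.05. The 1 gene was Mest, which is expressed from the paternal allele (chromosome 6, 30723547 to 30748465). It stood at 2645, 1941 and 2292 in KO ventricles, against 9463, 13530 and 12112 in KO atria. In WT pups it stood at 2706, 2727 and 3125 in ventricles, against 2405, 3004 and 2306 in atria. The KO atria thus lay above all libraries of the other 3 groups. The KO minus WT difference of the log2 chamber difference was -2.50, with an SE of 0.48 without the block and 0.25 with it (limma adjusted p = 1 and 0.0343). Without the pups numbered 2 of both genotypes, whose WT pair is in doubt, the blocked value was -2.42 (SE 0.35, limma adjusted p = 0.0129). That fit has 1 residual degree of freedom and also called 3 genes higher, Gm2026, Ccdc152 and Gm28437, with 1146 genes at an unadjusted p under 0.05. The KO chamber difference of Mest itself was -2.35 (SE 0.38, limma adjusted p = 0.0795). Exons of Mest share 23.1% of their bases with Copg2 on the opposite strand.

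By the rule for genes of the genotype difference, 9 more are given as values only. On the higher side were Lyve1, a lymphatic and macrophage marker, Fcrls, a receptor-like gene of microglia and macrophages, Sycp2, a meiotic chromosome gene, Scd1, a fatty acid desaturase gene, and Prlr, the prolactin receptor gene. Their log2 chamber differences were 0.45, 0.78, 2.38, 3.59 and 2.29 in KO pups and -2.13, -5.14, -3.25, -2.19 and -2.02 in WT pups. Fcrls stood at 48.3, 51.0 and 52.3 in KO ventricles, against 27.5, 19.9 and 44.7 in KO atria, and it was listed at 0 in all 3 WT ventricles. On the lower side were Cped1, Gas2, Tm6sf1 and Racgap1, a cytokinesis gene, which had -1.34, -0.70, 0.36 and -0.90 in KO pups and 1.54, 2.71, 3.82 and 0.76 in WT pups. Each had a limma adjusted p of 1, with and without WT pup 2, and kept its sign without it.

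More genes passed when pup 3 was left out. With pups 1 and 2 alone limma called 94 genes higher (0.634%) and 81 lower (0.547%), or 1.18% in all, and these included all 15 and all 14. The examples that follow were chosen after their values were seen. On the ventricular side were Fabp3 (3.13 on the log2 scale, limma adjusted p = 7.05e-04), Cd36 (1.91) and Acadm, the medium-chain dehydrogenase gene (1.57). On the atrial side were Nppa (-4.14), Angpt1 (-2.76), the fibronectin gene Fn1 (-1.53), the elastin gene Eln (-1.64) and Mest (-2.32). Pam, the gene of the enzyme that amidates peptide hormones, stood at 56381, 80324 and 89431 in KO ventricles, against 296609, 332265 and 52624 in KO atria. It was lower in ventricles in pups 1 and 2 (-2.22 together, limma adjusted p = 7.05e-04) and higher in pup 3 (0.77). Nr2f2, the COUP-TFII gene, likewise had -1.81 in pups 1 and 2 together and 1.69 in pup 3. With 2 pups 1 degree of freedom is left for the spread of each gene, so these calls lean on the spread shared over genes.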

How the data were processed

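Per the labels' protocols, RNA of the P3 chambers (RNeasy Micro kit) was made into SMART-Seq2 libraries. Tools in the submitters' processing notes are STAR 2.5.1, bcl2fastq 2.2 and DESeq2, with the build mm10. How reads were assigned to genes, by strand or not and with which annotation, is not stated there. The deposited table has 26440 genes and 20 libraries. Its values are linear and were taken as normalized signal, and no label says how the authors scaled them. The commonest low value of each library, among gene types such as pseudogenes and small RNAs, was taken as 1 read and gave the estimated totals. Among the low non-zero values of all genes only 47.0 to 65.8% were within 0.01 reads of a whole step of this size. Counts were therefore not recovered, no count test was run, and the read totals are rough. Such reads carry no molecular identifiers, so depth covers counting error only.

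Genes with a signal of at least 10 in at least 3 of the 6 KO libraries were kept, which left 14821. Values were tested as log2(signal + 1), which understates the change of low genes, in R 4.3.3 with limma 3.58.1, two-sided, with the pup as a block, a variance trend on the mean level, and a call at a Benjamini-Hochberg adjusted p under 0.05 over all genes. Residual and prior degrees of freedom were 2 and 5.54. The WT pups had the same fit, and the genotype difference was tested on the chamber difference of each pup with 4 residual degrees of freedom. The labels give both chambers of a number the same animal, which pairs them. Sex-linked transcripts matched between chambers in the 3 KO pups and in WT pups 1 and 3, but not in WT pup 2, so fits with WT pups were repeated without it. Deviations of same-pup chambers from the group means correlated at 0.02, 0.01 and -0.00, and those of different pups at -0.04 to 0.03. The litter pairs of KO and WT pups correlated at 0.18, 0.18 and 0.47, and the others at -0.32 to 0.20. The fits were tested on simulated data.

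The members, the 37 gene lists, the tests and the rule for named genes were chosen with earlier results of these data known. Named genes were the 4 chamber markers, Creld1 and Creld2, up to 12 called genes per direction with the largest difference and at least median level, a proper symbol and no sex linkage, up to 4 members of each list with the smallest p, the protein pairs of opposite chambers, and 5 genes per direction for the genotype difference. Meox2, Uts2b, AC153524.2 and other list members were named after their values were seen. Values of some list members are not reported here. Alternatives covered the block, pseudocount, filter, scaling, variance trend, shared spread, GC content and each pup left out. The litter block without the pups numbered 2 was added after the data were seen. Gene positions and exon overlaps are from GENCODE M21 (GRCm38), and upstream sequences from RefSeq (GRCm38.p6), where no entry was present for Tbx5, Dkk3, Kcne1, Fabp4, Sln and AC153524.2.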

Additional observations from a re-analysis of the deposited data

Results flagged for a closer look

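The chamber difference of Mest differed between the genotypes in the fit with the litter as a block. The KO minus WT value of its log2 ventricle minus atrium difference was -2.50 (SE 0.25, limma adjusted p = 0.0343), and in each of the 3 litters the KO pup had the lower value. Without the pups numbered 2 the blocked value was -2.42 (limma adjusted p = 0.0129), and WT pup 2 is the pup whose chambers differ in sex. Without the block and with all pups the value was -2.50 and did not pass (limma adjusted p = 1). No other gene met any of the rules for a closer look, and groups of 3 libraries are too small for the test of a lone outlying sample.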

How the results depend on the processing

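Main counts in KO pups were 15 genes higher and 14 lower. They were 36 and 30 with no replicate block, 25 and 29 with a pseudocount of 5, 8 and 9 with 0.1, 23 and 25 after quantile normalization, 34 and 31 with the spread shared with WT pups, 35 and 37 with the replicate block and a GC correction, and 0 and 0 with no variance trend. No filter, a stricter filter and median-ratio scaling kept both counts within 1.5 times. Leaving out 1 pup gave 7 to 94 higher and 11 to 81 lower. Chamber-list calls were 5 to 14 of the atrial and 2 to 7 of the ventricular genes with 1 pup left out, and 0 and 0 with no variance trend. In WT pups leaving out 1 gave 0 to 41 higher and 9 to 67 lower, and no replicate block gave 2 higher. The genotype difference had 1 lower call with same-numbered pups as a replicate block, 3 higher and 1 lower when that block left out number 2, and otherwise 0. The shared spread and all WT fits but those without WT pup 2 use its doubtful pair. Of the 29 called genes, 29 lost their call with no variance trend, 16 without pup 1, 12 with a pseudocount of 0.1, 5 without pup 2, 2 with no filter (Npr3 and Tnc) and 1 with the shared spread (Tnc), and none changed sign. Genes with a main value near their error changed sign over the fits without 1 pup: Creld1 (-0.43 to 0.46), Flt4 (-0.0028 at the lowest), Pdpn (-1.19 to 0.82, with limma's adjusted p at 0.0469 for -1.19, and -0.0245 after quantile normalization), Ptcra (-0.27 to 0.22), Dbh (-0.36 to 1.78), S100b (-0.16 to 0.12), Alb (-0.92 to 2.46), Acan (-2.12 to 0.68) and Alpl (-1.39 to 1.70, and -0.60 with a pseudocount of 0.1). The cause was not tested. With 3 pups, 2 residual degrees of freedom and an unknown scaling, genes that did not pass may still differ.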
